A study of Mus musculus with 8 samples.

Results

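The comparison described here is 4 weeks against 2 weeks in sham-operated knee joints of the mouse, in wild-type (WT) animals and in animals lacking the osteoclast-associated receptor (OSCAR). It holds 4 of the 8 libraries of the series, and the libraries are those whose labels name a sham operation: WT Sham 4w and KO Sham 4w against WT Sham 2w and KO Sham 2w, each 4-week library set against the 2-week library of its own genotype. The other 4 libraries came from joints in which osteoarthritis was induced by destabilization of the medial meniscus (DMM) and are used for comparison. WT mice were C57BL/6J males and KO mice were Oscar-/- males on C57BL/6, and the deletion is germline, so that every cell of a KO joint lacks the gene. Every library is labelled as coming from animals 10 weeks old, whatever the week, and the treatment description places the surgery at 10 to 12 weeks of age. The sham joint was operated on as well, so that no library shows an unoperated knee. Each library was made from RNA of 10 articular cartilages combined, and there was 1 library for each genotype, surgery and week. No condition was therefore repeated, and the only replication of the week comparison is that it can be made once in each genotype.

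Articular cartilage is populated by chondrocytes, which secrete a matrix of type II collagen, aggrecan and many smaller proteins, and it grades into calcified cartilage where it meets the bone. The marrow beneath holds the blood-forming lineages, among them megakaryocytes, the polyploid cells that shed platelets, and the neutrophils that defend against microbes. A cartilage sample taken from a mouse knee can carry RNA from bone, marrow and blood in addition to that of chondrocytes. A sham operation opens the joint without cutting the ligament, and its comparison over time shows what changed between collections in joints whose meniscus was left in place.

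Expression was given in TPM, transcript levels scaled for gene length that add up to the same total in every library, and in expected counts, the estimated number of reads from a gene. Oscar was listed at 1.70 and 0 TPM in the WT and KO sham joints at 4 weeks, against 1.25 and 0 TPM at 2 weeks, so that the sham libraries labelled KO had none. Total expected counts ranged from 13189181 to 18533609 over the 8 libraries. By the names of the deposited tables, the 4-week libraries carried the lane numbers 3 (WT) and 1 (KO), and all 2-week libraries carried lane 5. Lane and week therefore cannot be told apart. At 4 weeks lane followed genotype as well, so that a difference between WT and KO in the week change also carries a lane difference. The mean fragment length was 145.7 to 153.1 bases in the 4-week libraries and 173.4 to 177.4 bases in the 2-week libraries. Hemoglobin genes took 29.6% and 26.5% of the TPM in WT and KO sham joints at 4 weeks, against 37.7% and 32.4% at 2 weeks. Of the markers of the labelled tissue, Col2a1, the collagen of cartilage, had 76.6 and 90.6 TPM in sham joints at 4 weeks, against 96.4 and 209 TPM at 2 weeks. Elane, a protease of immature neutrophils in the marrow, had 567 and 423 TPM at 4 weeks, against 409.9 and 384 TPM at 2 weeks, so that marrow genes were present in all sham libraries beside those of cartilage.

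To ask which genes differed between the weeks, the counts of 12538 protein-coding genes were fitted with edgeR's quasi-likelihood test over all 8 libraries, with a separate week term for sham and for DMM joints. A gene was called when its Benjamini-Hochberg adjusted p was under 0.05, and all log2 changes below are 4 weeks over 2 weeks with their standard error, unless a DMM term is named. The error measures how far the week change differed between WT and KO and not the spread between repeated pools. In sham joints 1045 genes were higher at 4 weeks, which is 8.33% of those tested, and 997 genes were lower, which is 7.95%. Of these, 93 rose and 93 fell by at least 1 on the log2 scale. The number of calls moved when WT Sham 2w or WT Sham 4w was left out. The week change in sham joints then came from KO alone, 1 library against 1, and its error from DMM joints. With the genotype by surgery term left out of the fit 136 genes were higher and 59 lower, and DESeq2 called 404 higher and 353 lower.

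The scaling of the libraries has a part in every direction given below. With the trimmed mean of M-values (TMM) scaling used in the fit, the median change over the genes tested was -0.02. On the TPM scale the median gene was 0.54 higher in WT and 0.20 higher in KO at 4 weeks, on the log2 scale, and limma on log2(TPM + 1) called 4224 genes higher and 155 lower. Changes are therefore given relative to the median gene tested, and the TPM medians of a list are given where they point the other way. Where the weeks are said not to overlap, the values are TPM, on which the median gene was higher at 4 weeks. The share of all genes without such overlap was not counted, so that a lack of overlap describes single genes only.

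Over the 12503 genes with reads in all 4 sham libraries, the log2 ratio of 4 to 2 weeks had the same sign in WT and KO for 69.5% of genes on TMM-scaled counts, with Pearson's r = 0.50 and Spearman's rho = 0.52. This is across genes, which are not independent replicates, and the 2-week libraries of both genotypes shared a lane. On TPM without a pseudocount the share was 77.9%, where the median gene was higher at 4 weeks in both genotypes. In the plot of the WT ratio against the KO ratio, platelet genes lie to the upper right, chondrocyte genes and genes encoded in the mitochondrion lie mostly to the lower left, and skeletal muscle genes lie to the upper left.

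**Figure D1:**
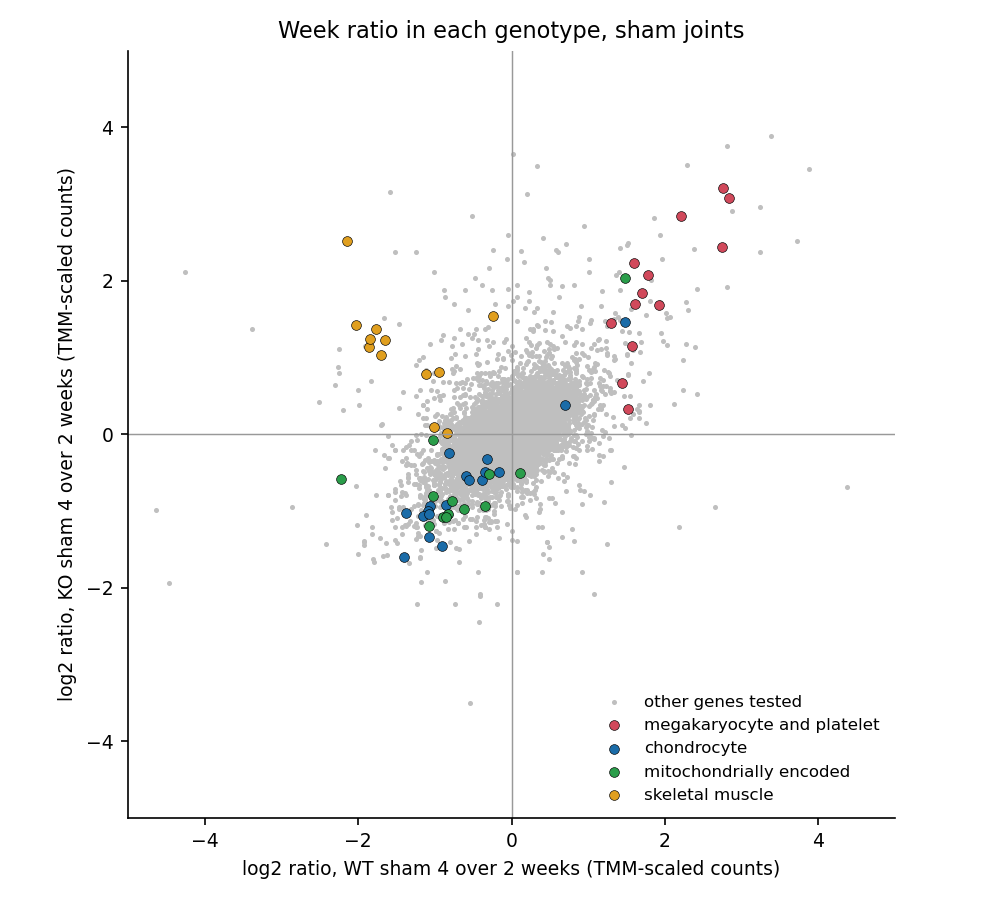
Each point is a gene, with its log2 ratio of 4 to 2 weeks in WT sham joints on the horizontal axis and in KO sham joints on the vertical axis, both on TMM-scaled counts (12503 genes, none outside the axes). Colors mark 4 gene lists. The 13 platelet genes are positive in both genotypes, while most of the 12 skeletal muscle genes are negative in WT and positive in KO.

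Genes of megakaryocytes and platelets were higher at 4 weeks in both genotypes. The gene lists used here were drawn up with results of these data known, so that their counts are descriptions. Of 13 listed genes tested, 12 were higher at 4 weeks and none was lower, beside the 8.33% of all genes that were called higher, and their median change was 1.82 (1.70 in WT and 1.84 in KO), where the median over all genes was -0.02. Their summed level was 973 and 589.5 TPM in the WT and KO joints at 4 weeks, against 199.5 and 138 TPM at 2 weeks. Both 4-week sums exceeded both 2-week sums, and the WT sum was the larger of the pair at each week. Since these are bulk samples, more megakaryocytes or platelets and more of these transcripts in each cannot be told apart.

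Tubb1 (chr2:174450695-174457882 on GRCm38), which encodes the β1-tubulin of the ring of microtubules that gives a platelet its disc shape, had the lowest p of all genes. It had 34.0 and 22.1 TPM in WT and KO joints at 4 weeks, against 1.57 and 1.74 TPM at 2 weeks, which is a change of 3.70 ± 0.16 or 12.9-fold (adjusted p = 4.74e-08). Both genotypes were almost without the transcript at 2 weeks and carried it plainly at 4 weeks. Itga2b (chr11:102453297-102470122), the αIIb subunit of the fibrinogen receptor, had 65.9 and 45.2 TPM at 4 weeks, against 19.3 and 14.8 TPM at 2 weeks (1.82 ± 0.10, adjusted p = 3.45e-07). Its groups did not overlap, and the same was true of the receptor for von Willebrand factor. Gp1ba, the chain of that receptor that binds the ligand, had 9.84 and 5.93 TPM at 4 weeks, against 0.97 and 0.94 TPM at 2 weeks (2.62 ± 0.16, adjusted p = 1.07e-06). Its partners Gp1bb, Gp9 and Gp5 changed by 1.90 ± 0.13, 1.65 ± 0.12 and 2.39 ± 0.14, with adjusted p = 1.58e-06, 2.86e-06 and 9.02e-07. Slc6a4, the serotonin transporter of platelets, was named after its values were seen, since its p was the third lowest of all genes, and it had 6.58 and 4.56 TPM at 4 weeks, against 0.45 and 0.32 TPM at 2 weeks (3.55 ± 0.21, adjusted p = 9.02e-07). Gp1bb shares its locus with a neighbouring septin gene, so that its reads could in part be those of the neighbour.

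The content of the α-granules, the stores that platelets empty on activation, followed the surface receptors. Pf4 (chr5:90772435-90773383), a chemokine of these granules, had 313 and 185 TPM at 4 weeks, against 93.2 and 57.4 TPM at 2 weeks (1.36 ± 0.11, adjusted p = 1.03e-05). Ppbp, a second chemokine of the same granules, had 353 and 209 TPM at 4 weeks, against 33.8 and 21.6 TPM at 2 weeks (2.94 ± 0.24, adjusted p = 0.00224). The WT library was above the KO library for both genes at both weeks, yet the lower 4-week value of each stood above the higher 2-week value. Vwf, which is made by endothelium as well as by megakaryocytes, was the only listed gene that was not called, with 24.4 and 16.3 TPM at 4 weeks, against 9.55 and 8.69 TPM at 2 weeks (0.95 ± 0.30, adjusted p = 0.118).

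Receptors that start or restrain platelet activation were among the called genes too. Gp6, a platelet receptor for collagen, had 6.02 and 3.30 TPM at 4 weeks, against 0.38 and 0.19 TPM at 2 weeks (2.90 ± 0.20, adjusted p = 1.58e-06). Clec1b, the receptor for podoplanin, changed by 1.85 ± 0.16 (adjusted p = 1.49e-05), and Treml1, a receptor stored in α-granules, by 2.43 ± 0.16 (adjusted p = 1.58e-06). F2rl2, a thrombin receptor chain, changed by 1.75 ± 0.14 (adjusted p = 6.83e-06), and Mpig6b, an inhibitory receptor of the lineage, by 3.09 ± 0.24 (adjusted p = 6.83e-06). In each of these genes both genotypes were higher at 4 weeks.

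The DMM libraries, which share no library with the sham comparison but share its lanes, showed the platelet difference as well. In them 356 genes, 2.84% of those tested, were higher at 4 weeks and 244 genes, 1.95%, were lower. Of the 13 platelet genes, 12 were higher after DMM, with a median change of 2.38 and summed levels of 838 and 906 TPM at 4 weeks, against 169.7 and 144 TPM at 2 weeks. In the test of the difference between the week changes, sham minus DMM, the gene of the list with the lowest p was Clec1b, at -0.98 ± 0.24 (adjusted p = 0.163 in edgeR), and Itga2b was at -0.24 ± 0.13 (adjusted p = 0.772). Each of the 4 libraries of week 4 stood above each of the 4 libraries of week 2 in the summed level of these genes, whatever the surgery or genotype. In these libraries the hemoglobin share did not separate the weeks, since it was 31.0% and 37.0% in WT and KO DMM joints at 4 weeks, against 30.7% and 34.5% at 2 weeks.

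**Figure D2:**
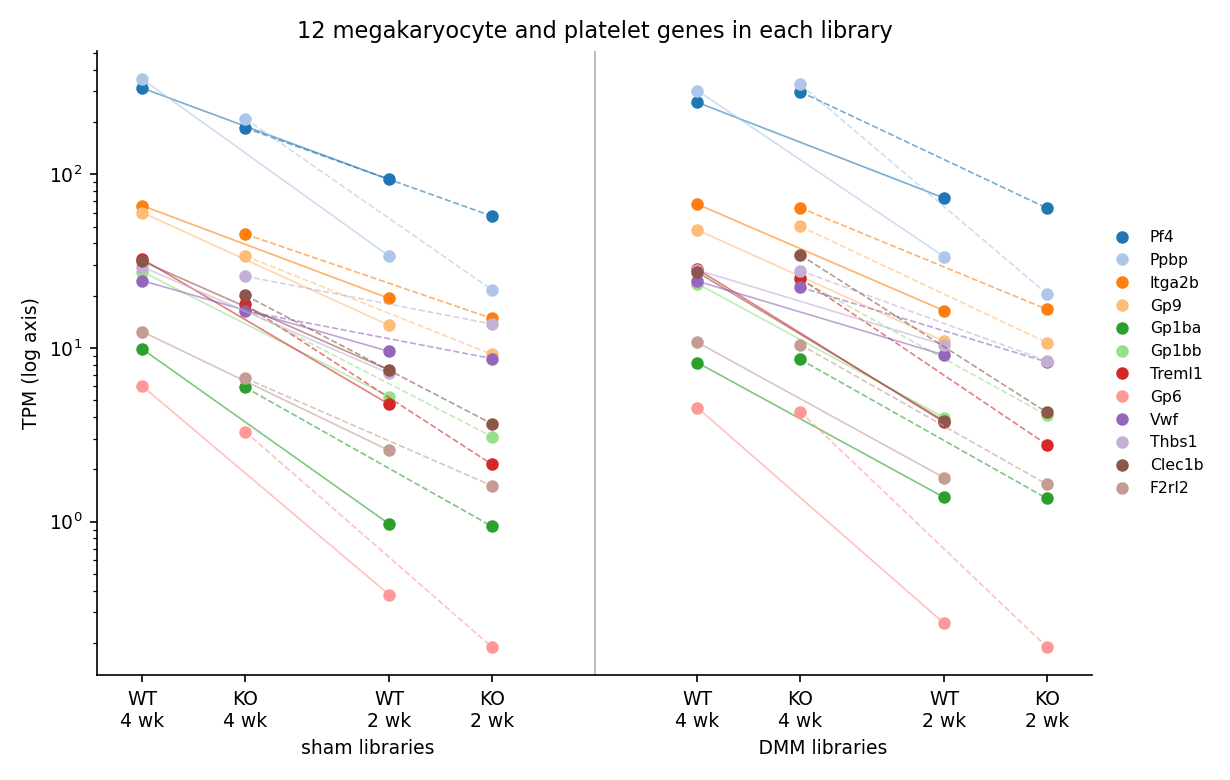
TPM on a log axis (vertical) of 12 of the 13 megakaryocyte and platelet genes in each of the 8 libraries (horizontal), sham on the left and DMM on the right, each with 4 weeks before 2 weeks. Solid lines join the WT libraries and dashed lines the KO libraries. Every gene drawn is higher at 4 weeks in both genotypes and after both operations, and Ppbp has 353 and 209 TPM in sham joints at 4 weeks, against 33.8 and 21.6 TPM at 2 weeks.

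Because these genes moved together, the sequence before their starts is shown for Pf4, Itga2b, Gp9 and Gp1ba. Each run is the 150 bases 5′ of the RefSeq start (GRCm38.p6), from chr5:90772285-90772434 (plus strand), chr11:102469884-102470033 (minus strand), chr6:87777920-87778069 (plus strand) and chr11:70638972-70639121 (plus strand). Capitals mark the letters AGATAA or TGATAA, of the kind read by GATA factors, and GGAAG, of the kind read by ETS factors, on either strand.
Pf4: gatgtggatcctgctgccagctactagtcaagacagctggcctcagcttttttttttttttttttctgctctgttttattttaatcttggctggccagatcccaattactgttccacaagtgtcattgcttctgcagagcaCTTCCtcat
Itga2b: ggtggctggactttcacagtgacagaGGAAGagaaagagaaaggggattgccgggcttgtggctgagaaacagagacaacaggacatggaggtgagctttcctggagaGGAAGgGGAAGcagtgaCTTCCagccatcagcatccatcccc
Gp9: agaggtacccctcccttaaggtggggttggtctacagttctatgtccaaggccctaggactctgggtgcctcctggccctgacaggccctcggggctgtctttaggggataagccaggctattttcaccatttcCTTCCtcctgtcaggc
Gp1ba: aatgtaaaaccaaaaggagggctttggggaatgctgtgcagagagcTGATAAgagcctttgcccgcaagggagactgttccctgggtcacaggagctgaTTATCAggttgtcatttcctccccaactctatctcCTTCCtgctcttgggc
Of the 13 listed genes 10 had a RefSeq entry, and 3 of the 10 held a GATA match, which is 30% against 9.91% of 27020 promoters of the same length. Matches to GGAAG were found in 7 of the 10, against 47.5% of all promoters. Gp1ba held 2 GATA matches and Itga2b held 4 GGAAG matches. For Itga2b the RefSeq start lies inside the gene span given above, so that its 150 bases fall within that span. A match is a description of letters and not a binding site.

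Several genes of late neutrophils were higher. Of 14 tested, 7 were higher at 4 weeks and none was lower, beside 8.33% of all genes called higher, with a median of 0.33 (0.17 in WT and 0.49 in KO). They were Mmp8, Mmp9, Cxcr2, Csf3r, Il1b, Mmp25 and Padi4. Csf3r, the receptor for the cytokine that drives neutrophil production, had 153 and 119 TPM at 4 weeks, against 63.3 and 76.2 TPM at 2 weeks (0.63 ± 0.09, adjusted p = 4.16e-04). Cxcr2, the chemokine receptor that releases neutrophils from the marrow, had 82.8 and 72.8 TPM at 4 weeks, against 41.1 and 42.1 TPM at 2 weeks (0.50 ± 0.08, adjusted p = 0.00171). For both receptors the weeks did not overlap. The granule genes Ltf, Camp and Ngp were not called (0.18 ± 0.11, 0.06 ± 0.13 and 0.02 ± 0.13). Lcn2, Retnlg, S100a8 and S100a9 of the same list were not called either. Of 10 genes of early neutrophils with azurophil granules 2 were higher at a median of -0.03, where the TPM medians were 0.53 in WT and 0.24 in KO. Without the genotype by surgery term, 3 of the 14 late genes were called higher.

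Several inflammatory cytokine genes were higher. Of 17 cytokine and chemokine genes tested 6 were higher and none was lower, beside 8.33% of all genes called higher, with a median of 0.41. Il1b, which encodes interleukin-1β and which neutrophils and monocytes express, had 85.9 and 70.6 TPM at 4 weeks, against 29.3 and 26.1 TPM at 2 weeks (1.04 ± 0.10, adjusted p = 3.07e-05). Osm, the cytokine oncostatin M, had 16.2 and 13.2 TPM at 4 weeks, against 4.99 and 6.09 TPM at 2 weeks (1.02 ± 0.15, adjusted p = 7.06e-04). Both genes were more than 2-fold higher in TPM at 4 weeks in each genotype. The others called were Il1a (1.30 ± 0.33), Ccl3 (1.61 ± 0.38), Cxcl2 (0.94 ± 0.25) and the decoy receptor Il1r2 (0.41 ± 0.11), whereas Tnf was at 2.42 and 2.61 TPM at 4 weeks, against 1.73 and 1.73 TPM at 2 weeks, and did not pass (adjusted p = 0.745). DESeq2 called 2 of these 17 genes higher, as did the fit without the genotype by surgery term. For 4 of the 17 DESeq2 gave no adjusted p, so that it could not call them.

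Cebpb, a transcription factor of emergency granulopoiesis, had 64.8 and 71.0 TPM at 4 weeks, against 21.6 and 22.4 TPM at 2 weeks (1.23 ± 0.11, adjusted p = 2.25e-05), and the groups were far apart. Slfn4, a schlafen gene of myeloid cells, had 102 and 107 TPM at 4 weeks, against 32.5 and 38.8 TPM at 2 weeks (1.22 ± 0.08, adjusted p = 1.58e-06). Lilr4b, an inhibitory receptor of myeloid cells, changed by 0.94 ± 0.08 (adjusted p = 1.49e-05), but it has a near-identical neighbour between which reads could be split. Galnt2, an enzyme that starts O-glycans, had 13.4 and 17.6 TPM at 4 weeks, against 8.55 and 6.31 TPM at 2 weeks (1.13 ± 0.10, adjusted p = 2.03e-05). With RSEM's effective gene lengths as offsets its adjusted p became 0.0929, and it was the only one of the 15 genes of lowest p among the higher genes that lost its call there.

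Prg2, the major basic protein of eosinophil granules, had 1539.9 and 1296 TPM at 4 weeks, against 733 and 707 TPM at 2 weeks (0.61 ± 0.10, adjusted p = 0.00161), and Epx, eosinophil peroxidase, had 55.3 and 46.5 TPM at 4 weeks, against 25.3 and 27.8 TPM at 2 weeks (0.54 ± 0.09, adjusted p = 0.00199). In TPM neither gene overlapped between the weeks, on a scale where the median gene was also higher at 4 weeks. In all, 4 of 9 genes of eosinophils, basophils and mast cells were called higher and none lower by edgeR, where DESeq2 called 3. Without the genotype by surgery term edgeR called none, although 5 kept an unadjusted p under 0.05. The basophil protease Mcpt8 was not called (-0.09 ± 0.18, adjusted p = 0.775). Of 13 monocyte and macrophage genes 2 were higher and none was lower, at a median of 0.13, where 8.33% of all genes were called higher, so that this list's count is near that of genes in general.

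Among lymphoid genes, those of B cells and of T and NK cells had medians of opposite sign on TMM-scaled counts. Of 17 B cell genes 7 were lower and none was higher, beside 7.95% of all genes called lower and 8.33% called higher. Their median was -0.31, but on TPM it was 0.10 in WT and 0.02 in KO, so that the direction holds only relative to the median gene. Cd79a, a signalling chain of the B cell receptor, had 80.3 and 76.6 TPM at 4 weeks, against 88.0 and 92.2 TPM at 2 weeks (-0.59 ± 0.09, adjusted p = 8.53e-04), and its partner Cd79b changed by -0.67 ± 0.11 (adjusted p = 0.00134). For these 2 genes the TPM were lower at 4 weeks in both genotypes as well. Without WT Sham 2w or WT Sham 4w the median of the B cell genes was -0.18 or -0.19, which rests on the KO pair alone. The 14 T and NK cell genes had a median of 0.76, but it was 0.33 in WT and 1.27 in KO, and 2 were called higher and 1 lower. The other 11 were not called, and the lowest change of the list was -0.52. Of the 14, 9 had a positive ratio in both genotypes and 2 a negative one in both. After DMM the median was 1.23, with 4 called higher and 1 lower, beside 2.84% and 1.95% of all genes there. In sham joints DESeq2 called none of the 14, with 3 at an unadjusted p under 0.05. It gave no adjusted p for 3 of the 14, which it could not call. The 2 genes that edgeR called higher in sham joints were Cd4 and Ncr1. Cd4, a coreceptor of helper T cells, had 4.10 and 2.63 TPM at 4 weeks, against 1.06 and 1.43 TPM at 2 weeks (adjusted p = 0.00538). Ncr1, a receptor of NK cells, had 1.19 and 1.97 TPM at 4 weeks, against 0.17 and 0.52 TPM at 2 weeks (1.92 ± 0.42, adjusted p = 0.00889). These are low levels that did not overlap between the weeks.

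Of 15 erythroid genes 5 were lower and none was higher, beside 7.95% of all genes called lower. Their median was -0.05, where the TPM medians were 0.57 in WT and 0.03 in KO. The called genes were led by the globins, and Hbb-bs, an adult β-globin, had 128249 and 124518 TPM at 4 weeks, against 166474 and 138493 TPM at 2 weeks (-0.59 ± 0.18, adjusted p = 0.0441). The globin copies are near-identical, so that reads could be split between them. Slc4a1, the anion exchanger of the red cell membrane, was at 581 and 447 TPM at 4 weeks, against 327 and 429.6 TPM at 2 weeks (0.04 ± 0.12, adjusted p = 0.86).

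**Figure D3:**
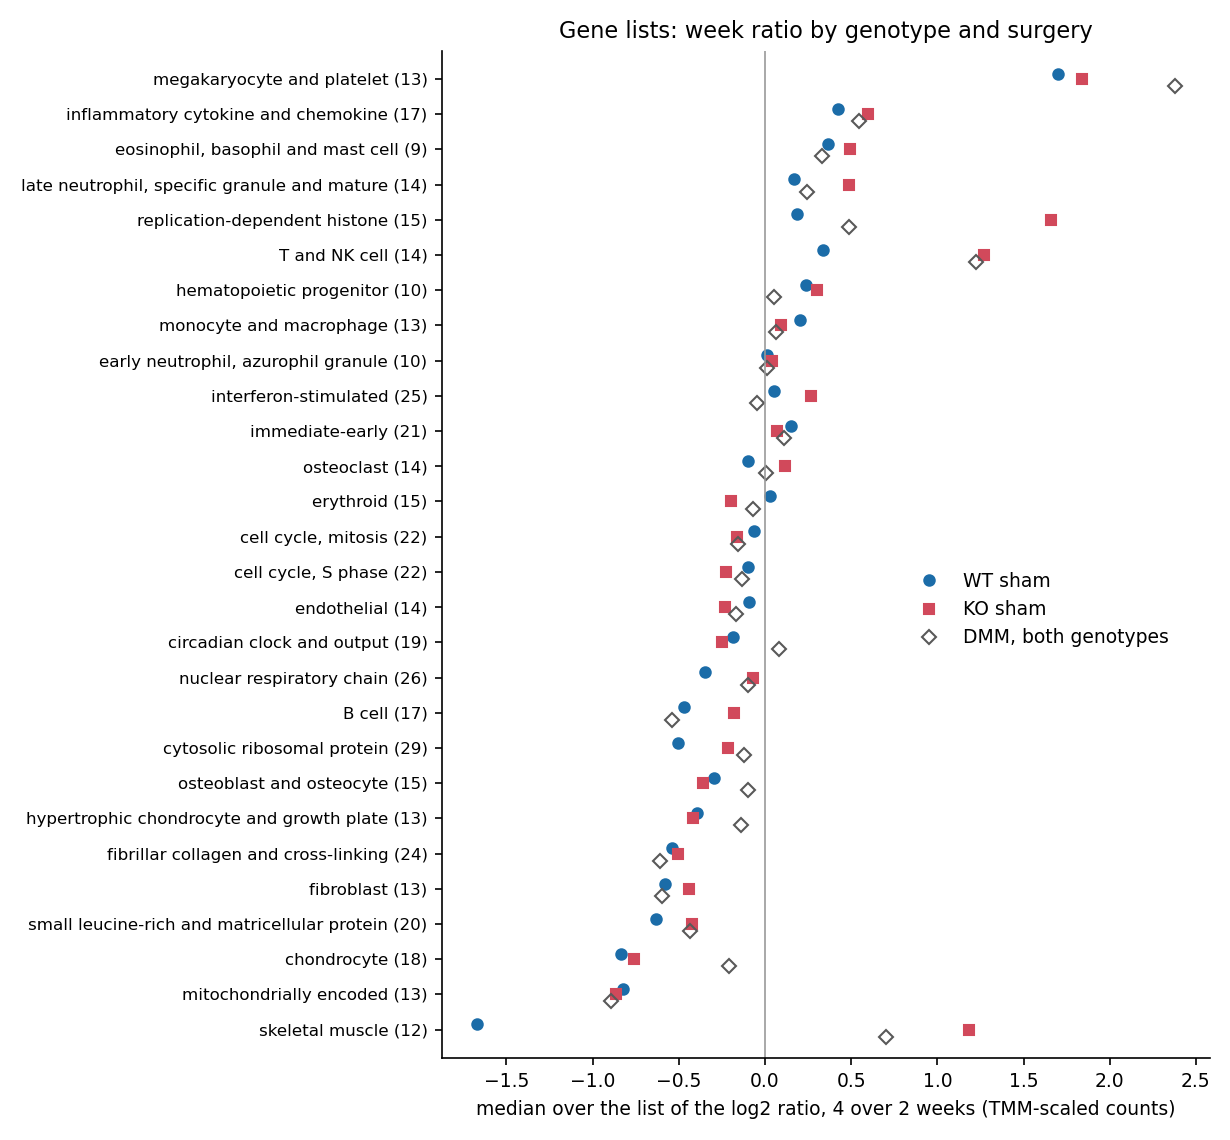
Median over each gene list (rows, with the number of genes tested) of the log2 ratio of 4 to 2 weeks, on TMM-scaled counts, in WT sham joints (circles), KO sham joints (squares) and DMM joints fitted over both genotypes (open diamonds). Platelet genes have the highest medians in both genotypes, at 1.70 and 1.84, matrix and mitochondrially encoded genes lie to the left, and skeletal muscle genes have opposite signs in WT and KO.

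Genes of chondrocytes fell. Of 18 chondrocyte genes tested 10 were lower at 4 weeks and none was higher, beside the 7.95% of all genes that were called lower, with a median of -0.73 (-0.84 in WT and -0.76 in KO). On TPM the medians were -0.24 in WT and -0.57 in KO, in the same direction. Their summed level was 2470.0 and 3292 TPM in WT and KO joints at 4 weeks, against 3665 and 5524 TPM at 2 weeks. KO Sham 2w had the highest sum of the 4 libraries, and without it the median was -0.84, which rests on the WT pair alone. Without WT Sham 2w or WT Sham 4w it was -0.76 or -0.77, which rests on the KO pair alone. Without the genotype by surgery term 5 of the 18 genes were called lower.

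Chad (chr11:94565047-94569127 on GRCm38), or chondroadherin, a leucine-rich protein that binds chondrocyte integrins, had 431 and 498 TPM at 4 weeks, against 769 and 1304 TPM at 2 weeks (-1.50 ± 0.10, adjusted p = 1.58e-06). Both 4-week values lay below both 2-week values. Cytl1, a small secreted protein of cartilage and the most abundant of the list, had 1075 and 1229 TPM at 4 weeks, against 1575 and 2154 TPM at 2 weeks (-1.05 ± 0.12, adjusted p = 1.02e-04). Snorc, a membrane proteoglycan of chondrocytes, had 54.8 and 69.0 TPM at 4 weeks, against 102 and 130.0 TPM at 2 weeks (-1.20 ± 0.12, adjusted p = 2.97e-05). For both genes the weeks stayed apart. Of the large structural molecules, aggrecan (Acan) had 25.8 and 34.9 TPM at 4 weeks, against 42.0 and 68.9 TPM at 2 weeks (-1.06 ± 0.15, adjusted p = 0.00223), and Comp, a protein that bridges collagen fibrils, had 143 and 190.2 TPM at 4 weeks, against 213 and 336 TPM at 2 weeks (-1.11 ± 0.13, adjusted p = 5.02e-04). These 2 genes also fell without overlap.

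Other members of the list varied. Col2a1, the main collagen of cartilage, had 76.6 and 90.6 TPM at 4 weeks, against 96.4 and 209 TPM at 2 weeks, and was not called (-1.18 ± 0.65, adjusted p = 0.374), with KO Sham 2w far above the other 3 libraries. Sox9, the transcription factor that specifies chondrocytes, was at 2.62 and 3.55 TPM at 4 weeks, against 2.23 and 4.26 TPM at 2 weeks (-0.42 ± 0.17, adjusted p = 0.105), with the weeks intermingled. Prg4, the lubricant of the cartilage surface, had 410.2 and 838 TPM at 4 weeks, against 571 and 809.9 TPM at 2 weeks, and was called lower (-0.53 ± 0.13, adjusted p = 0.0147) although its TPM in KO joints was no lower at 4 weeks. Matn3 (1.47 ± 0.76, adjusted p = 0.308) and Col9a1 (0.53 ± 0.53, adjusted p = 0.582) had positive values and were not called.

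**Figure D4:**
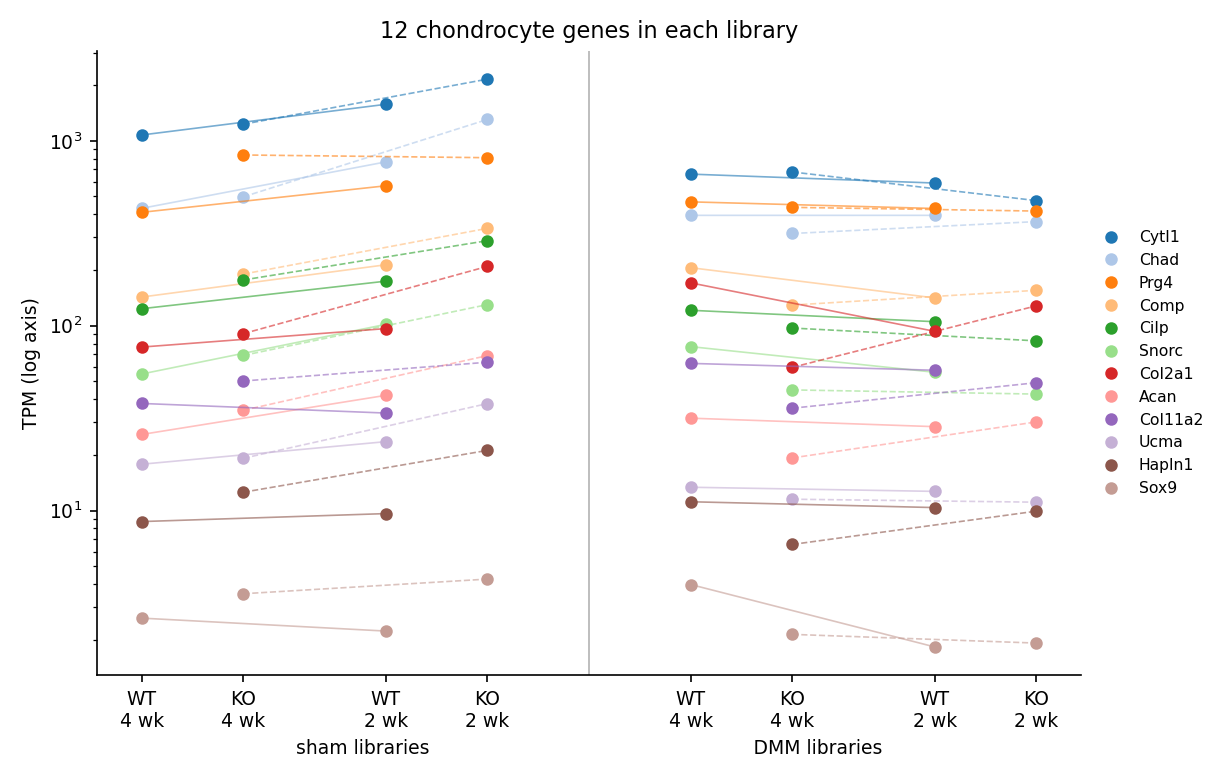
TPM on a log axis (vertical) of 12 chondrocyte genes in each of the 8 libraries (horizontal), sham on the left and DMM on the right, each with 4 weeks before 2 weeks. Solid lines join the WT libraries and dashed lines the KO libraries. In sham joints Chad has 431 and 498 TPM at 4 weeks, against 769 and 1304 TPM at 2 weeks, whereas in DMM joints it has 395 and 315 TPM at 4 weeks, against 395 and 365 TPM at 2 weeks.

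The 15 genes of lowest p among those that fell, at a mean of at least 3 TPM, included Chad of the chondrocyte list. Ndufa4l2, a mitochondrial protein induced under low oxygen, had 29.9 and 33.1 TPM at 4 weeks, against 58.6 and 84.0 TPM at 2 weeks (-1.45 ± 0.10, adjusted p = 1.58e-06). Frzb and Sfrp5, secreted proteins that bind WNT ligands, changed by -1.52 ± 0.11 and -1.71 ± 0.14 (adjusted p = 2.04e-06 and 6.90e-06). Frzb had 7.81 and 11.3 TPM at 4 weeks, against 15.6 and 28.4 TPM at 2 weeks, without overlap. Cilp2 (-1.40 ± 0.11), Prelp (-1.13 ± 0.09), Ecm2 (-1.21 ± 0.10), Abi3bp (-1.09 ± 0.10) and Smoc2 (-1.22 ± 0.11) encode matrix proteins, with adjusted p of at most 1.85e-05. The others were Anxa8, an annexin (-1.23 ± 0.09), Nrep (-1.09 ± 0.09), Crispld1 (-1.12 ± 0.10) and Meltf, melanotransferrin (-0.98 ± 0.09). Nrep and Abi3bp were not called without the genotype by surgery term (adjusted p = 0.0773 and 0.0715), nor without any genotype term (0.0766 and 0.102). The remaining genes of the 15, Omd and Col10a1, belong to the bone and growth plate lists.

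Genes of calcified cartilage and bone fell in part. Col10a1, the collagen of hypertrophic chondrocytes, had 88.6 and 157 TPM at 4 weeks, against 176 and 291 TPM at 2 weeks (-1.34 ± 0.12, adjusted p = 1.49e-05), and the weeks did not overlap. Ibsp, or bone sialoprotein, had 182 and 266 TPM at 4 weeks, against 270.1 and 424 TPM at 2 weeks (-1.01 ± 0.10, adjusted p = 3.42e-05). Of 13 genes of hypertrophic cartilage and the growth plate 5 were lower and none was higher, at a median of -0.39, whereas Ihh (-0.39 ± 0.24, adjusted p = 0.291) and Pth1r (-0.25 ± 0.11, adjusted p = 0.116), the ligand and receptor of the loop that paces hypertrophy, were not called. Of 15 osteoblast and osteocyte genes 6 were lower and none was higher. Both counts stand beside 7.95% of all genes called lower. Omd, or osteomodulin, a small leucine-rich protein of mineralized tissue, had 18.8 and 36.2 TPM at 4 weeks, against 44.6 and 77.8 TPM at 2 weeks (-1.55 ± 0.12, adjusted p = 6.83e-06). Sost, the WNT inhibitor of osteocytes, was at 28.5 and 32.0 TPM at 4 weeks, against 14.9 and 27.3 TPM at 2 weeks (0.19 ± 0.23, adjusted p = 0.629). On TPM the median of the osteoblast list was 0.27 in WT and -0.21 in KO, and that of the hypertrophic list 0.15 in WT and -0.24 in KO, so that for these lists the direction in WT depends on the scaling. Without the genotype by surgery term 1 gene of each list was called lower.

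Of 14 osteoclast genes 2 were higher and none was lower, beside 8.33% of all genes called higher. Their median was -0.07, where the TPM medians were 0.44 in WT and 0.34 in KO. With limma on log2(TPM + 1) the median was 0.30 and 7 of the 14 were called higher, so that the direction depends on the scaling. The 2 called genes were Itgb3, the β3 integrin chain that osteoclasts share with platelets, at 31.5 and 22.9 TPM at 4 weeks, against 7.59 and 8.53 TPM at 2 weeks (1.34 ± 0.12, adjusted p = 2.63e-05), and Mmp9, which neutrophils also express (0.49 ± 0.09, adjusted p = 0.00416). Acp5, the tartrate-resistant acid phosphatase, and Ctsk, the collagen-cleaving protease of osteoclasts, were not called (-0.08 ± 0.11 and -0.18 ± 0.13).

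Matrix genes that fibroblasts and bone cells also express were lower in part. Of 20 small leucine-rich and matricellular genes 13 were lower and 1 was higher, beside 7.95% of all genes called lower, at a median of -0.57. Sparc, a collagen-binding protein of bone and cartilage, had 776 and 1095 TPM at 4 weeks, against 1206 and 2361 TPM at 2 weeks (-1.26 ± 0.12, adjusted p = 2.97e-05), and Dcn, or decorin, had 274 and 409 TPM at 4 weeks, against 347 and 614 TPM at 2 weeks (-0.86 ± 0.09, adjusted p = 7.86e-05). Sparc did not overlap between the weeks, while for Dcn the KO value at 4 weeks lay between the 2-week values. The single higher gene was Thbs1, a thrombospondin that platelets store (1.05 ± 0.20, adjusted p = 0.0184). Of 24 genes of fibrillar collagens and their cross-linking 11 were lower and none was higher, at a median of -0.48, but on TPM the median was 0.03 in WT and -0.26 in KO. Col1a1, the main collagen of bone and tendon, had 175 and 256 TPM at 4 weeks, against 145 and 318 TPM at 2 weeks, and was not called (-0.43 ± 0.17, adjusted p = 0.104). The prolyl hydroxylase P4ha2 had 6.17 and 8.33 TPM at 4 weeks, against 9.91 and 15.9 TPM at 2 weeks (-1.11 ± 0.12, adjusted p = 8.63e-05). Without the genotype by surgery term 2 of the 20 genes and none of the 24 were called lower by edgeR, where DESeq2 called 12 and 9. For 1 of the 24 DESeq2 gave no adjusted p.

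Connective tissue and vessel genes were mixed. Of 13 fibroblast genes 7 were lower and 2 were higher, at a median of -0.50, with TPM medians of 0.18 in WT and -0.20 in KO. Of 8 tendon and ligament genes 3 were lower, of 14 endothelial genes 3 were lower, and of 12 adipocyte genes 2 were lower. None of these lists held a gene called higher, and of all genes 7.95% were called lower and 8.33% higher. On TPM the medians of these 3 lists were 0.00, 0.46 and 0.20 in WT and -0.51, 0.01 and -0.29 in KO. Their direction in WT therefore also depends on the scaling, and for endothelial genes that in KO as well. Without the genotype by surgery term edgeR called 1 fibroblast gene higher and none lower, with 4 of the 13 below 0.05 before adjustment, where DESeq2 called 5 lower over the full set.

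Secreted proteins that restrain signalling were among the genes that fell. Of 22 genes of WNT and IGF signalling 7 were lower and 1 was higher, beside 7.95% of all genes called lower and 8.33% called higher. Their median was -0.29, with TPM medians of 0.19 in WT and -0.10 in KO, so that the direction in WT depends on the scaling. Wif1, which binds WNT ligands, had 51.0 and 66.3 TPM at 4 weeks, against 73.1 and 118 TPM at 2 weeks (-1.02 ± 0.10, adjusted p = 3.78e-05), and Dkk1, an inhibitor at the WNT coreceptor, had 3.04 and 5.30 TPM at 4 weeks, against 3.86 and 8.36 TPM at 2 weeks (-0.89 ± 0.15, adjusted p = 0.00181). The others that fell were Frzb, Dkk3, Igf2, Igfbp6 and Igfbp7, and the higher gene was the receptor Igf1r. Axin2 and Lef1, which respond to WNT signals, were not called (0.61 ± 0.29 and 0.24 ± 0.19). Grem1, an antagonist of bone morphogenetic proteins, had 4.29 and 6.54 TPM at 4 weeks, against 6.71 and 10.5 TPM at 2 weeks (-1.06 ± 0.13, adjusted p = 1.72e-04), within a list of 26 TGF-β and BMP genes of which 5 were lower and 2 higher, at a median of -0.16 that was positive on TPM in both genotypes. Grem1 and Wif1 were lower at 4 weeks in each genotype without overlap.

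For several cartilage genes the week change in sham joints differed from that in DMM joints. In the test of sham minus DMM, 4 genes had a higher week change in sham joints, which is 0.0319% of those tested, and 53 had a lower one, which is 0.423%. Of the 18 chondrocyte genes 6 were among the 53 (Comp, Snorc, Chad, Cytl1, Cilp and Ucma). Cytl1 had 1075 and 1229 TPM in WT and KO sham joints at 4 weeks, against 1575 and 2154 TPM at 2 weeks, while in DMM joints it had 660.1 and 678 TPM at 4 weeks, against 591 and 475 TPM at 2 weeks. The DMM values lay below all sham values at either week, and the difference of the week changes was -1.22 ± 0.17 (adjusted p = 0.00599). Chad had a difference of -1.20 ± 0.14 (adjusted p = 0.00293), with 395 and 315 TPM in DMM joints at 4 weeks, against 395 and 365 TPM at 2 weeks. In DMM joints Chad was at both weeks below the lowest sham value, and its levels at 2 weeks in sham joints were the highest of the series. The sham joints at 2 weeks also held the highest levels of Frzb (-1.57 ± 0.15, adjusted p = 0.00132) and Ndufa4l2 (-1.14 ± 0.14, adjusted p = 0.00293), with Frzb at 15.6 and 28.4 TPM there and at no more than 13.03 TPM in any other library.

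For Tnfrsf11b and Serpina1d the week change had opposite signs after the operations. Tnfrsf11b, or osteoprotegerin, the decoy receptor that limits osteoclast formation, changed by -0.65 ± 0.09 in sham joints (adjusted p = 4.16e-04) and by 0.43 ± 0.09 in DMM joints (adjusted p = 0.0209). It had 17.5 and 22.8 TPM in sham joints at 4 weeks, against 17.7 and 32.0 TPM at 2 weeks, and 18.1 and 12.0 TPM in DMM joints at 4 weeks, against 11.2 and 8.15 TPM at 2 weeks. In sham joints the weeks overlapped, whereas in DMM joints they did not. Serpina1d, one of several near-identical α1-antitrypsin genes, changed by -1.05 ± 0.14 in sham joints and 0.90 ± 0.18 in DMM joints. Of the 4 genes with a higher change in sham joints, B3gnt2, an enzyme that extends glycans, had 16.4 and 13.7 TPM in sham joints at 4 weeks, against 5.77 and 10.99 TPM at 2 weeks, with a difference of 0.93 ± 0.16 (adjusted p = 0.0206), and Cd101, a myeloid surface protein, had a difference of 0.76 ± 0.15 at an adjusted p of 0.04997, at the threshold itself. The others, named here after their values were seen, were Zbed6, a transcription factor derived from a transposon (1.80 ± 0.31, adjusted p = 0.0201), and Mup22, one of many near-identical major urinary protein genes, with at most 8 expected counts in a sham library. DESeq2 called none of the genes higher and 39 lower, with 63 and 175 at an unadjusted p under 0.05 against 358 and 504 in edgeR. The counts of this test moved when single libraries were left out, where the week change on that side rests on 1 genotype alone.

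Transcripts of the mitochondrial genome were lower at 4 weeks in sham and DMM joints alike. Of 13 encoded proteins 9 were lower in sham joints and none was higher, at a median of -0.82, beside 7.95% of all genes called lower. In DMM joints 9 were lower at -0.89, beside 1.95% of all genes. On TPM the medians in sham joints were -0.28 in WT and -0.72 in KO. mt-Cytb, of complex III, had 3699 and 4293 TPM at 4 weeks, against 5296 and 8563 TPM at 2 weeks (-1.13 ± 0.12, adjusted p = 6.93e-05), without overlap. mt-Nd1, of complex I, had 2970.0 and 3151 TPM at 4 weeks, against 3788 and 5815 TPM at 2 weeks (-0.99 ± 0.11, adjusted p = 1.36e-04). mt-Co3 pointed the other way at 1147 and 1173 TPM at 4 weeks, against 285 and 252 TPM at 2 weeks, but was not called (1.75 ± 0.61, adjusted p = 0.225). Copies of mitochondrial sequence in the nuclear genome can take such reads, so that its value is uncertain. Of 26 nuclear genes of the respiratory chain 7 were lower and none was higher, at a median of -0.21, with TPM medians of 0.17 in WT and 0.12 in KO, so that their direction depends on the scaling.

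Ribosomal protein genes were lower on TMM-scaled counts and near level on TPM. Of 29 ribosomal protein genes 18 were lower and none was higher, beside 7.95% of all genes called lower. Their median was -0.35, whereas on TPM the medians were -0.01 in WT and -0.05 in KO. Rps27, of the small subunit, had 2372 and 2430.2 TPM at 4 weeks, against 3301 and 2831 TPM at 2 weeks (-0.57 ± 0.15, adjusted p = 0.0313), while Rpl3 had 755 and 666 TPM at 4 weeks, against 736 and 757 TPM at 2 weeks (-0.44 ± 0.10, adjusted p = 0.00807). Without the genotype by surgery term edgeR called none of the 29, with 12 at an unadjusted p under 0.05, while DESeq2 called 14 lower. Without WT Sham 2w, which leaves the KO pair alone, the median was -0.22. Over all genes the median change in sham joints was -0.20 for the 1284 genes shorter than 1000 bases and 0.13 for the 1349 genes over 5000 bases. The trend was steeper in WT, with medians of -0.33 and 0.20, than in KO, with -0.06 and 0.04, and in DMM joints the medians were -0.03 and 0.00. Fragment length differed between the weeks in sham and DMM joints, and its part in the trend was not tested. The ribosomal protein genes tested had a median length of 720.1 bases, and the platelet genes one of 1588 bases. The 3640 genes of 1000 to 2000 bases had a median change of -0.10. With effective lengths as offsets 794 genes were higher and 760 lower, and 695 and 646 of these were among the calls given above.

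**Figure D5:**
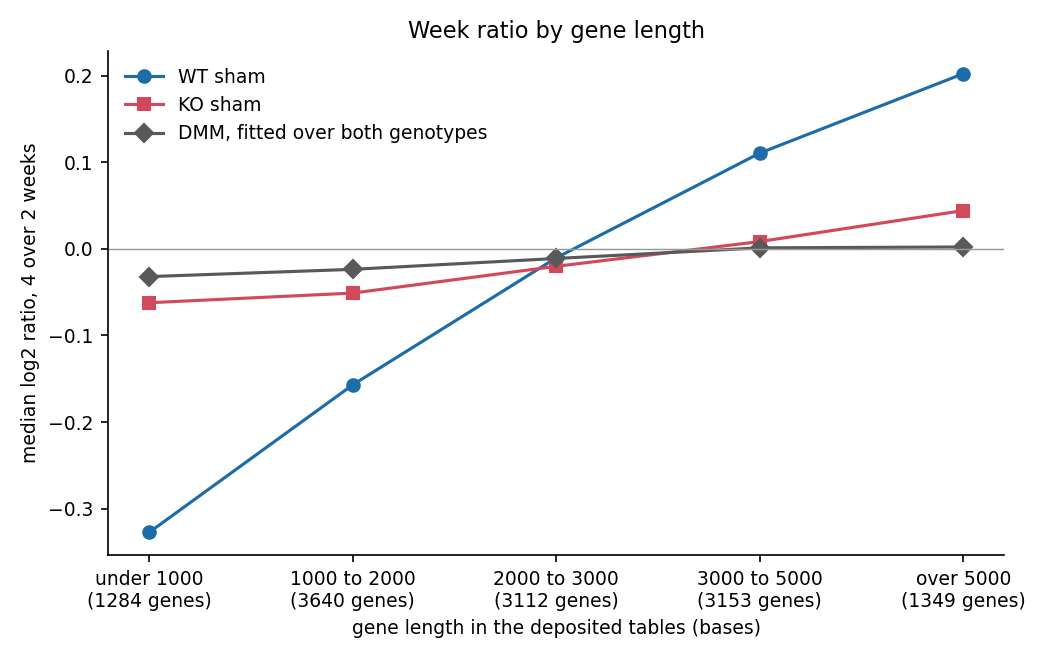
Median log2 ratio of 4 to 2 weeks on TMM-scaled counts (vertical) for genes grouped by their length in the deposited tables (horizontal, with the number of genes), in WT sham joints (circles), KO sham joints (squares) and DMM joints fitted over both genotypes (diamonds). The WT line climbs from -0.33 to 0.20 and the KO line from -0.06 to 0.04, and the DMM line stays near 0.

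For a few lists the medians of the genotypes lay far apart, a difference that was not tested. The 15 replication-dependent histone genes, whose transcripts normally lack a poly(A) tail, had a median of 0.18 in WT and 1.66 in KO. Of the 15, 4 were called higher, beside 8.33% of all genes. Hist1h2bq, a histone gene that was not on the list, had 13.99 and 21.9 TPM at 4 weeks, against 3.72 and 5.25 TPM at 2 weeks (2.26 ± 0.24, adjusted p = 8.50e-05). These genes share sequence with their copies, so that single values are uncertain. Without KO Sham 4w or KO Sham 2w the median of the 15 was 0.21 or 0.20, which rests on the WT pair alone. Over the 8 libraries DESeq2 called none, and 9 of the 15 were below 0.05 before adjustment in edgeR. For 3 of the 15 DESeq2 gave no adjusted p, so that it could not call them. Of 22 S phase genes 3 were lower and of 22 mitosis genes 2 were lower, beside 7.95% of all genes called lower. Their medians of -0.18 and -0.08 were positive on TPM in both genotypes.

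The medians of 12 skeletal muscle genes had opposite signs in the genotypes, which was not tested either. They were -1.67 in WT and 1.19 in KO, and the summed level was 151 and 189.5 TPM in WT and KO joints at 4 weeks, against 306 and 79.5 TPM at 2 weeks. Ckm, the creatine kinase of muscle, had 16.98 and 20.7 TPM at 4 weeks, against 39.8 and 6.97 TPM at 2 weeks, and WT Sham 2w was the highest and KO Sham 2w the lowest of the 4 libraries. No gene of the 12 was called by edgeR or DESeq2, and the count below 0.05 before adjustment was 1 with edgeR and 0 with DESeq2. Without WT Sham 2w 7 of them were called higher, and without KO Sham 2w 9 were called lower, where only 1 genotype then carries the comparison.

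Of 19 circadian clock and output genes 5 were lower and none was higher, at a median of -0.22, though TPM medians were 0.48 in WT and 0.11 in KO. Dbp, a clock output gene with a strong daily rhythm, had 18.6 and 23.1 TPM at 4 weeks, against 25.7 and 34.6 TPM at 2 weeks (-0.84 ± 0.10, adjusted p = 1.67e-04), while the core clock gene Arntl was not called (-0.38 ± 0.14, adjusted p = 0.0879) and the hour of collection was not given in the sources used here. Of 21 immediate-early genes 4 were higher and 1 was lower. Fos, a transcription factor induced within minutes of a stimulus, had 48.0 and 63.8 TPM at 4 weeks, against 25.3 and 37.5 TPM at 2 weeks (0.43 ± 0.12, adjusted p = 0.0296), without overlap. Of 24 hypoxia and glycolysis genes 5 were lower and 1 was higher, at a median of -0.19 that was positive on TPM in both genotypes. The calls were few in other lists, beside 8.33% of all genes called higher and 7.95% called lower. Of 25 interferon-stimulated genes 2 were higher and none was lower, and of 24 cell death genes 1 was higher and 1 lower. Of 14 glucocorticoid-induced genes edgeR and DESeq2 called none, with 4 and 0 below 0.05 before adjustment, and of 18 unfolded protein response genes they called none, with 3 and 1.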

How the data were processed

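The authors trimmed paired reads with BBDuk, aligned them to the mouse genome GRCm38 with STAR 2.6.0a and quantified genes with RSEM 1.2.17, and the tool versions are those of the submitters' processing notes. The genome build is that of the study's methods and fits the mouse gene IDs of the tables, whereas the submitters' notes name a human build and the annotation release given with the methods is numbered as a human one. Lane numbers were read from the names of the tables. The deposited tables give expected counts per gene, which RSEM estimates and which were not normalized, and the deposited TPM values, which are scaled for effective length and library total. The tables hold 52636 gene IDs, of which 52403 matched the mouse annotation used for names and positions.

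Expected counts were rounded to whole numbers and 12538 protein-coding genes with TPM above 1 in at least 1 library were tested with edgeR 4.0.16 (glmQLFit and glmQLFTest, robust, TMM scaling, R 4.3.3). The fit held 8 libraries and 6 coefficients (genotype, surgery, their interaction, and week within sham and within DMM), which leaves 2 residual degrees of freedom. Adjusted p-values are Benjamini-Hochberg over all genes tested. No condition was repeated, so the p-values measure only how far WT and KO pools differed in the week change. The script was tested on simulated data. Gene lists were described by counts and medians without a set test. DESeq2 1.42.0, limma 3.58.1 on log2(TPM + 1), other scalings, filters and designs, and the omission of each library were run as alternatives. Effective length offsets, the omission of platelet genes and the omission of mitochondrially encoded genes were chosen after seeing the data. The 4 libraries follow from their labels, but the comparison and the 48 gene lists were chosen with earlier results of these data known.

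Genes were named by rule, beginning with Oscar. The rule took the 15 of lowest p in each direction with a mean of at least 3 TPM in sham libraries. It also took the 6 of lowest p in each direction of sham minus DMM. From the lists it took the first 2 genes and up to 4 of the largest changes, but this was not carried out for every list. The first 2 genes of the T and NK cell, osteoblast, monocyte, erythroid and skeletal muscle lists, among others, were not given. Cxcr2, Ngp, Cxcl2, Il1r2, Tnf, Mcpt8, Ncr1, Slc4a1, Cytl1, Comp, Sox9, Prg4, Col9a1, Pth1r and Sost, and members given in full lists of calls or of genes not called, were named outside the rule after their values were seen. The values of 1 member of the platelet list are not reported here, though its list's counts and sums include it. Of the 6 with a higher change in sham, Fgl2, Hist1h2bq, Syne1 and Birc6 did not pass. Intervals from counts were not needed, since each level is an estimate from 1 pooled library of 13189181 to 18533609 expected counts, and precision between pools is unknown.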

Additional observations from a re-analysis of the deposited data

Results flagged for a closer look

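The week change differed between sham and DMM joints in edgeR's test of the difference itself, with 4 genes that had a higher change in sham joints and 53 that had a lower one. On the log2 scale, sham minus DMM, B3gnt2 was at 0.93 and Cd101 at 0.76. The differences were -1.57 for Frzb, -1.20 for Chad, -1.95 for Serpina1d, -1.08 for Tnfrsf11b, -1.39 for Snorc and -1.14 for Ndufa4l2. The skeletal muscle genes had a median week ratio of -1.67 in WT sham joints and 1.19 in KO sham joints, in opposite directions with 1 library in each condition, and this difference was not tested.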

How the results depend on the processing

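No paired analysis was possible because each condition had 1 library and the labels give no replicate that links them beyond genotype, which the fit already holds. The counts of genes higher and lower at 4 weeks in sham joints, 1045 and 997, became 404 and 353 with DESeq2, 4224 and 155 with limma on log2(TPM + 1), 136 and 59 without the genotype by surgery term, and 234 and 104 without any genotype term. Leaving out 1 library gave 398 to 1412 higher and 258 to 1423 lower genes, the fewest without WT Sham 2w and the most without KO Sham 4w. For sham minus DMM the 4 higher genes became 0 with DESeq2 (63 at an unadjusted p under 0.05), 24 with limma and 9 without a filter, and the 53 lower genes became 82 without a filter. Leaving out 1 library gave 2 to 163 higher and 32 to 222 lower genes there. The share of genes with the same sign in both genotypes, 77.9% on TPM, was 69.5% on TMM-scaled counts. On log2(TPM + 1) the list medians of B cell and circadian genes turned to 0.0737 and 0.13, and those of osteoblast and skeletal muscle genes to 0.04 and 0.15. Without WT Sham 2w or WT Sham 4w the skeletal muscle median was 1.19 or 1.18. The causes were not tested, except that the TPM scale moves the median of all genes upward. Of the 30 genes of lowest p, Pf4 and Omd lost their calls without any genotype term (adjusted p = 0.0931 and 0.0828), and Galnt2, Nrep and Abi3bp lost theirs as given above. The lack of a second pool for any condition, the lane and the fragment length, which all follow the week, limit every comparison, and depth allows no statement on genes below a few counts.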
